A study of Arabidopsis thaliana with 12 samples.

Results

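The nuclear genes for the light-harvesting antenna and for the photosystems were examined in whole seedlings of 4 Arabidopsis genotypes. Members were the nuclear loci whose annotated symbol names an LHCA, LHCB, PSA or PSB protein. In addition, 2 genes matched by letters only and were left out, PSAT (phosphoserine aminotransferase) and PSAT1 (phospholipid sterol acyltransferase, also written ATPSAT1), since neither encodes a photosystem protein. The rule gave 44 of the 33602 genes in the tables, namely 20 antenna genes, 13 photosystem I genes and 11 photosystem II genes. All 44 passed the filter on low counts and were among the 20888 genes tested. Of the antenna genes, 6 encode LHCI proteins, which serve photosystem I, and 14 encode LHCII and minor antenna proteins, which serve mainly photosystem II.

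Of the antenna genes, LHCA1 to LHCA4 serve the belt of photosystem I, and LHCA5 and LHCA6 link photosystem I with the NDH complex. LHCB1.1 to LHCB1.5, LHCB2.1, LHCB2.2, LHCB2.4 and LHCB3 encode proteins of the LHCII trimers. LHCB4.1, LHCB4.2, LHCB4.3, LHCB5 and LHCB6 encode the minor antenna proteins that join trimers to the core. The genes classed as photosystem I, by their PSA symbol alone, were PSAD-1, PSAD-2, PSAE-1, PSAE-2, PSAF, PSAG, PSAH-1, PSAH-2, PSAK, PSAL, PSAN, PSAO and PSAP. Whether each encodes a subunit of the complex was not checked. The photosystem II genes included PSBO-1, PSBO-2, PSBP-1, PSBP-2, PSBQ-1 and PSBQ-2, named for extrinsic proteins of the oxygen-evolving side. The others were PSBR, PSBW, PSBX and PSBY for small subunits, and PSBS for the sensor of energy-dependent quenching.

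The genotypes were jazQ mycT, mycT, jazQ and Col-0, all in the Col-0 accession. mycT carries insertions in the transcription factor genes MYC2, MYC3 and MYC4, jazQ carries insertions in the repressor genes JAZ1, JAZ3, JAZ4, JAZ9 and JAZ10, jazQ mycT carries all 8, and Col-0 is the wild type with none. Seedlings were 8 d old, had grown in continuous light on vertical plates of sucrose medium, and were harvested whole, roots included. Each genotype had 3 libraries, described by the labels as biological replicates, with about 200 seedlings pooled in each, and the p-values measure the spread between these pools.

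JAZ proteins bind MYC2, MYC3 and MYC4 and repress them until the hormone jasmonate causes the JAZ proteins to be degraded. The photosystems are pigment-protein complexes of the thylakoid membrane whose reaction-centre proteins are encoded in the plastid, while the antenna and many small or extrinsic subunits are encoded in the nucleus and imported. Nuclear photosynthesis genes are known to respond to light and to signals from the plastid, and jasmonate treatment is known to lower the expression of many of them in leaves.

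In mycT the photosystem genes stood higher as a group than in Col-0, by a median of 0.24 on the log2 scale for antenna genes and 0.27 for both photosystem I and photosystem II genes, and 2 of 44 single genes passed the test, against 0.957% of all genes called higher. DESeq2 called 17, against 3.03% of genes. A fit of mycT and Col-0 alone with the replicate number as a block, chosen after seeing the data, called 23, against 3.08%. The same fit without the block called none, and leaving out 1 library at a time gave 0 to 5 calls. In jazQ mycT, which carries the same myc insertions together with the jaz insertions, the medians lay between −0.02 and 0.04. In jazQ the antenna genes had a median of 0.19 and no member passed the test.

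The 250 bases upstream of the annotated gene start were read for every member from the TAIR10.1 genome, since MYC2 and its relatives are known to bind the G-box and since the CCAAT box is a common element of plant promoters. The following 6 windows show the range found, with G-box letters (CACGTG) and CCAAT-box letters (CCAAT, or ATTGG where the match is on the other strand) in capitals. LHCB4.1 and LHCA4 carry both elements, LHCB1.5 and PSBX carry the CCAAT box alone, and PSAE-2 and PSBQ-1 carry the G-box alone.
LHCB4.1 (AT5G01530), chr5:208616-208865, plus strand: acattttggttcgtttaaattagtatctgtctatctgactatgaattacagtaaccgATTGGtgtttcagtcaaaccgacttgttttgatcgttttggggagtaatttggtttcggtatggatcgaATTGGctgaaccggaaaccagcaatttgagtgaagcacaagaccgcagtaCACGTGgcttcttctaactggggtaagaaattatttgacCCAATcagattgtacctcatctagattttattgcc
LHCA4 (AT3G47470), chr3:17495034-17495283, minus strand: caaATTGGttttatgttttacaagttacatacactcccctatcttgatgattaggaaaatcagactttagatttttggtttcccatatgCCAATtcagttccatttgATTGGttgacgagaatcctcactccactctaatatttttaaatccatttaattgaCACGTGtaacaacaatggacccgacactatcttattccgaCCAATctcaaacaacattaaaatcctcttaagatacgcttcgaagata
LHCB1.5 (AT2G34420), chr2:14523569-14523818, minus strand: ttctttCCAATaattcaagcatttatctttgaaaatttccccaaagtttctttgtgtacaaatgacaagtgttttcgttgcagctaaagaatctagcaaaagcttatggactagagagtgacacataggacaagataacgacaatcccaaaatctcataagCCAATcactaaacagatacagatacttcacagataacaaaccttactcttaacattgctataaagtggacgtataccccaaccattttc
PSAE-2 (AT2G20260), chr2:8736484-8736733, plus strand: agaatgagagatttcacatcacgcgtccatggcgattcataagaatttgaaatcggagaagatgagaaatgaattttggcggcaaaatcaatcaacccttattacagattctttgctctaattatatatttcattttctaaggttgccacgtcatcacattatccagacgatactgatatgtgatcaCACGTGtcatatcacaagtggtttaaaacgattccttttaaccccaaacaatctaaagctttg
PSBQ-1 (AT4G21280), chr4:11334102-11334351, plus strand: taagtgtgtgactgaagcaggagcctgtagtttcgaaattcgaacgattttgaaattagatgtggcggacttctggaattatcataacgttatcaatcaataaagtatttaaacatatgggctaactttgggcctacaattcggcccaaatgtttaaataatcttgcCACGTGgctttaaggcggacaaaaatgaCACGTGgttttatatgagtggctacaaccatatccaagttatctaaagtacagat
PSBX (AT2G06520), chr2:2588449-2588698, minus strand: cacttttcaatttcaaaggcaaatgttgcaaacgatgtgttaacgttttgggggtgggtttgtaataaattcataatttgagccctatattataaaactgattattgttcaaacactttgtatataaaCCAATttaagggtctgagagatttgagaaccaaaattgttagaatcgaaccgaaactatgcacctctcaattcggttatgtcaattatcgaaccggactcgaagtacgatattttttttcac

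A G-box occurred in 9 of 44 member windows (20.5%), against 6.49% of the windows of all 27443 nuclear protein-coding genes. They were 4 of 20 antenna genes (LHCA4, LHCB2.4, LHCB4.1 and LHCB6), 2 of 13 photosystem I genes (PSAE-2 and PSAH-2) and 3 of 11 photosystem II genes (PSBP-2, PSBQ-1 and PSBQ-2). The CCAAT box differed most between the classes, with 18 of 20 antenna windows (90.0%), 8 of 13 photosystem I windows (61.5%) and 2 of 11 photosystem II windows (18.2%), against 46.0% of all windows. The I-box core (GATAAG, searched on both strands like the others) was in 10 of 44 (22.7%), against 12.3% of all windows, and the G-box-like CACATG in 4 of 44 (9.09%), against 11.1%. These letters do not overlap one another in the motifs searched, and a match describes the sequence only.

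**Figure D1:**
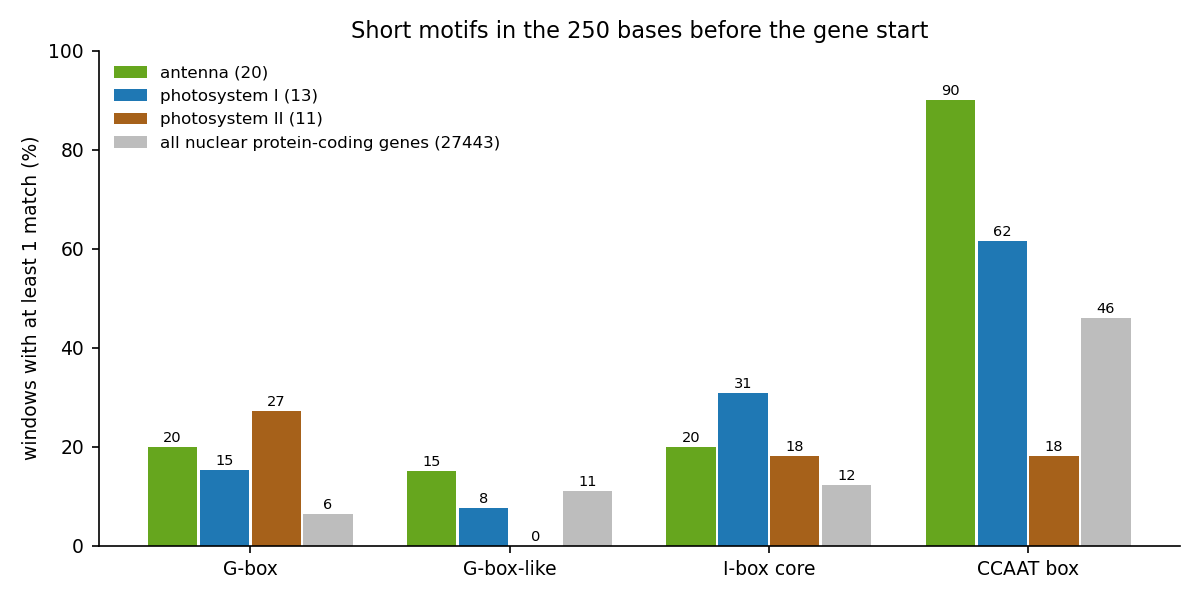
Share of 250-base upstream windows (vertical axis, %) with at least 1 match to each of 4 motifs, for antenna, photosystem I and photosystem II genes and for all 27443 nuclear protein-coding genes (bars). The CCAAT box was found in 90.0% of antenna windows, against 18.2% of photosystem II windows and 46.0% of all windows.

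The 9 members with a G-box had a median log2 fold change of 0.15 in mycT relative to Col-0 and the 35 without one a median of 0.26. In jazQ relative to Col-0 the medians were 0.16 and 0.11. Members with the element are given beside those without it as a description, and no test was made between them.

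Most members were among the most abundant messages of the seedlings. On the TPM scale, which divides by gene length and so allows levels to be compared between genes, 35 of 44 averaged above 1000 TPM over the 12 libraries and 35 ranked within the top 100 of all genes. The antenna genes averaged between 65.3 and 10328 TPM with a median of 1848 TPM, the photosystem I genes between 554 and 2346.5 TPM with a median of 1481 TPM, and the photosystem II genes between 3.91 and 5297 TPM with a median of 1409 TPM. Together the members took 7.92 ± 0.90% of all TPM in jazQ mycT, 9.40 ± 0.75% in mycT, 9.40 ± 1.05% in jazQ and 8.49 ± 0.63% in Col-0 (SD, n = 3 each). The libraries of all genotypes overlapped in this share.

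Paralogs of one subunit differed widely in level. LHCB1.3 ranked 2nd of all genes and gave 44.3 to 49.1% of the summed TPM of the 5 LHCB1 genes, which encode the main trimeric LHCII protein, in every library. PSBO-1 gave 77.7 to 81.7% of the PSBO pair, the extrinsic protein that stabilises the manganese cluster of photosystem II. PSBP-2 gave only 0.115 to 0.234% of the PSBP pair, named for another extrinsic protein of the oxygen-evolving side, at a mean of 3.91 TPM. Its annotated coding region has 378 bases, against 792 bases in PSBP-1.

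Some of the paralogs are close in sequence. LHCB1.1, LHCB1.2 and LHCB1.3 lie next to one another on chromosome 1 and have coding regions of 804 bases each, of which 95.6% matched between LHCB1.1 and LHCB1.2 and 96.1% between LHCB1.1 and LHCB1.3. Of the 50-base words of the transcripts, the length of a read, 20.5% of LHCB1.1, 10.6% of LHCB1.2, 17.0% of LHCB1.3, 13.7% of LHCB1.4, 17.3% of LHCB1.5, 20.2% of LHCB2.1 and 28.2% of LHCB2.2 occur in another member. For the other 37 members this share was 0%. Counting words found in any other gene of the tables, on either strand, the share was 49.2% for PSAH-1, 38.6% for LHCB2.4, 22.3% for LHCB1.5, 22.0% for LHCB1.3, 19.1% for PSAH-2 and 11.5% for LHCB3. RSEM, with which the authors counted, divides reads that match several genes among them, so single values of the LHCB1, LHCB2 and PSAH genes and of LHCB3 are uncertain, by an amount that was not tested.

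Sequencing depth was 12336090 to 26347184 counts per library. Annotated rRNA genes, plastid and mitochondrial copies included, took 11.0% of jazQ mycT replicate 1 and 5.12% of mycT replicate 1, against 0.741 to 2.12% of the other 10 libraries, and results on mycT and jazQ mycT are therefore also given without these libraries. The mutated genes followed their labels in part. JAZ1 was at 4.25 to 6.05 TPM in the jazQ mycT and jazQ libraries, against 44.2 to 59.95 TPM in Col-0, and MYC2 was at 13.2 to 18.6 TPM in mycT, against 23.7 to 29.0 TPM in Col-0. MYC2 was at 22.1 to 23.9 TPM in jazQ mycT and was not called lower there. MYC3, MYC4 and JAZ9 were not called lower in any line that carries their insertion, and JAZ3 and JAZ10 stood far higher in the lines that carry their insertions, where a count cannot show whether the transcript is intact. The labels of the Col-0 and jazQ libraries refer to an earlier deposited series and those of the mycT and jazQ mycT libraries do not, although the study states that all lines were grown and processed in parallel. In every comparison that sets a mycT or jazQ mycT library against a Col-0 or jazQ library, a difference between the deposits cannot be told apart from an effect of the myc insertions.

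Values per library are given as CPM, counts scaled to the size of the library after TMM normalisation, in the order of replicates 1, 2 and 3, and fold changes are on the log2 scale with their standard error. A gene was called at an adjusted p under 0.05 in the quasi-likelihood test of edgeR, fitted to all 12 libraries, after Benjamini-Hochberg adjustment over all 20888 genes.

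The summed CPM of the classes shows the size of the differences. The 20 antenna genes summed to 36956 ± 2482 CPM in jazQ mycT, 43458 ± 2496 CPM in mycT, 43012 ± 6296 CPM in jazQ and 37366 ± 3942 CPM in Col-0 (SD, n = 3 each). The 13 photosystem I genes summed to 10397 ± 792 CPM in jazQ mycT, 12459.5 ± 703 CPM in mycT, 11158 ± 1162 CPM in jazQ and 10534 ± 881 CPM in Col-0. The 11 photosystem II genes summed to 13244 ± 815 CPM in jazQ mycT, 15615 ± 477 CPM in mycT, 13475 ± 798 CPM in jazQ and 12894 ± 823 CPM in Col-0. All 44 members summed to 60598 ± 3914 CPM in jazQ mycT, 71533 ± 3614 CPM in mycT, 67645 ± 8187 CPM in jazQ and 60794 ± 5637 CPM in Col-0. All 3 mycT libraries lay above all 3 Col-0 libraries in the photosystem I and photosystem II sums, while the antenna sums of mycT and Col-0 overlapped, and the jazQ sums overlapped those of Col-0 in every class.

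**Figure D2:**
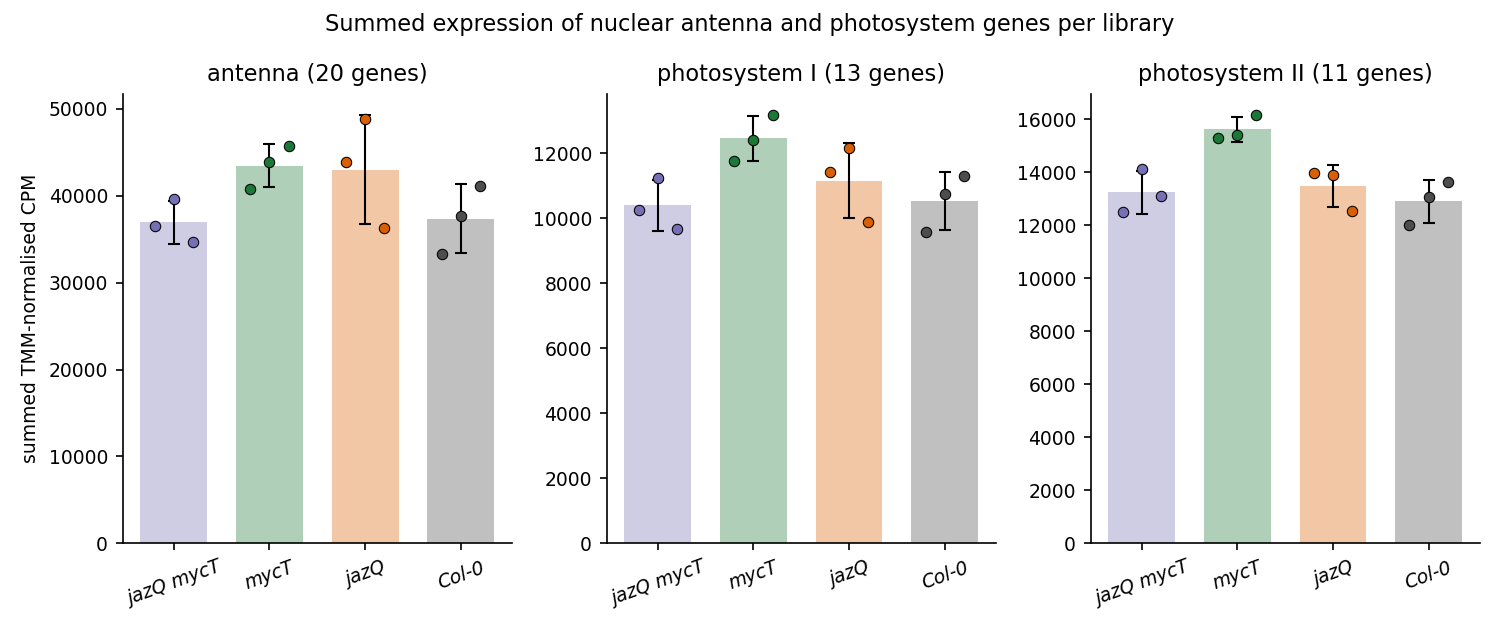
Summed TMM-normalised CPM (vertical axes, from 0) of the antenna, photosystem I and photosystem II genes in jazQ mycT, mycT, jazQ and Col-0. Points are single libraries, bars the mean and whiskers the SD of 3 libraries. The mycT libraries lie at 15276 to 16161 CPM for photosystem II, above the Col-0 libraries at 12001 to 13621 CPM.

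The members also moved together between replicates of one genotype. Relative to the mean of Col-0, 0 of 44 members lay above 0 in Col-0 replicate 1, 28 in Col-0 replicate 2 and 44 in Col-0 replicate 3, with medians of −0.13, 0.03 and 0.12. jazQ replicates 1 and 2 had medians of 0.16 and 0.22 and replicate 3 a median of −0.06. The mycT libraries had medians of 0.17, 0.23 and 0.32, and the jazQ mycT libraries −0.03, 0.12 and −0.05. The genes are therefore not independent readings, and a count of members with the same sign is worth less than its number. The SD within a genotype was largest in LHCB2.4, at 0.34 on the log2 scale, against a median of 0.15 for antenna, 0.13 for photosystem I and 0.10 for photosystem II genes.

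The comparison of mycT with Col-0 sets the line with insertions in MYC2, MYC3 and MYC4 against the wild type. The JAZ genes are intact in both lines, and the deposits differ too. PSBO-1 and PSBX, both of photosystem II, were called higher in mycT and no member was called lower, or 2 of 44 higher and 0 lower, against backgrounds of 0.957% of all genes called higher and 0.847% called lower. Fold changes were above 0 in 19 of 20 antenna genes, 13 of 13 photosystem I genes and 11 of 11 photosystem II genes, against 49.5% of all genes tested, and in 38 of 44 when TPM was used in place of the count fit. The median over all genes was −0.00.

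PSBO-1, the major PSBO paralog, had 3085, 3233 and 3154 CPM in mycT and 2433, 2451 and 2689 CPM in Col-0. The libraries did not overlap, and the fold change was 0.32 ± 0.07 (edgeR, adjusted p = 0.0311). PSBX, a small membrane-spanning subunit of photosystem II, had 1076, 1031 and 1023 CPM in mycT and 741, 869 and 866 CPM in Col-0. Here too every mycT library lay above every Col-0 library, with a fold change of 0.34 ± 0.07 (edgeR, adjusted p = 0.0311).

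The remaining photosystem II genes had fold changes of 0.09 to 0.35 that did not pass the test, and 9 of the 11 genes, those called included, had all mycT libraries above all Col-0 libraries, as 11.0% of all genes did. All mycT libraries lay below Col-0 in 0 of 44 members, against 10.2% of all genes. Over the 44 members 24 were separate and higher in mycT on the CPM scale and 11 on the TPM scale (2 antenna, 3 photosystem I and 6 photosystem II), where 4.09% of all genes lay above and 18.8% below and the members had 0 below. The median fold change of all genes in mycT stood at −0.08 on log2(TPM + 1) and −0.09 on log2(TPM + 0.1). PSBP-1, the abundant PSBP paralog, had 2238, 2357 and 2437 CPM in mycT and 1677, 1848 and 2007 CPM in Col-0, a fold change of 0.35 ± 0.10 (edgeR, adjusted p = 0.0895). PSBR, a subunit near the oxygen-evolving complex and the most abundant photosystem II message, had 3046, 2986 and 3399.5 CPM in mycT and 2512, 2738 and 2744 CPM in Col-0. Neither pair of groups overlapped. PSBY, a small membrane-spanning subunit, had 643, 528 and 587 CPM in mycT and 442, 499 and 504 CPM in Col-0, and PSBO-2, the minor PSBO paralog, had 776, 757 and 876 CPM in mycT and 650.4, 703 and 735 CPM in Col-0. PSBP-2 was at 2.04, 3.01 and 3.22 CPM in mycT and 2.04, 2.67 and 3.04 CPM in Col-0, so its libraries overlapped throughout.

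Photosystem I genes had fold changes of 0.06 to 0.33 in mycT, none of which passed the test, and 8 of 13 had all mycT libraries above Col-0. PSAL, which helps to dock mobile LHCII at photosystem I, had 1742, 1910.3 and 2104 CPM in mycT and 1436, 1597 and 1695 CPM in Col-0. PSAO, another subunit of the LHCII docking side, had 1320.4, 1296 and 1483 CPM in mycT and 962, 1134 and 1187 CPM in Col-0. In both the mycT libraries were the higher, by 0.28 ± 0.10 for PSAL and 0.32 ± 0.10 for PSAO (edgeR, adjusted p = 0.151 and 0.135). PSAG, which holds the LHCI belt to the core, had 1234, 1377 and 1462 CPM in mycT and 1033, 1098 and 1247 CPM in Col-0, and the groups overlapped by 1 library.

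Of the photosystem I genes with the lowest levels, PSAD-2, which encodes one of the 2 stromal PSAD proteins that bind ferredoxin, had 361, 446 and 409 CPM in mycT and 265, 351 and 350.3 CPM in Col-0. PSAH-1, a subunit needed for LHCII docking, had 523, 555 and 647 CPM in mycT and 443, 494 and 489 CPM in Col-0. Neither pair overlapped, and neither fold change (0.33 ± 0.14 and 0.27 ± 0.09) passed the test. PSAE-2, of the PSAE pair that also serves ferredoxin reduction, was at 292, 277 and 293 CPM in mycT and 249, 263 and 299 CPM in Col-0, and overlapped.

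The antenna genes had fold changes of −0.15 to 0.38 in mycT, none past the test, and 7 of 20 had all mycT libraries above Col-0. LHCI genes had a median of 0.19 and LHCII genes of 0.26. LHCB1.3 had 8225, 8575 and 9523 CPM in mycT and 6733, 7083 and 8263 CPM in Col-0, and the groups overlapped by 1 library. LHCB1.5, the second LHCB1 gene by level, had 3699, 3955 and 3791 CPM in mycT and 3104, 3126 and 3349 CPM in Col-0, with no overlap and a fold change of 0.26 ± 0.08 (edgeR, adjusted p = 0.137). LHCA4, a core LHCI protein with a G-box in its upstream window, had 4004, 4193 and 3893 CPM in mycT and 3462, 3939.6 and 4222 CPM in Col-0, a fold change of 0.06 ± 0.09 within the spread of the libraries.

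The rare antenna genes behaved likewise. LHCB4.3, the low paralog of the minor antenna protein LHCB4, had 65.8, 67.4 and 54.2 CPM in mycT and 48.2, 43.6 and 54.6 CPM in Col-0, with a fold change of 0.36 ± 0.09 (edgeR, adjusted p = 0.0691). LHCA5 and LHCA6 are LHCI proteins that link photosystem I with the NDH complex. LHCA5 had 137, 135 and 151 CPM in mycT and 116, 116 and 124 CPM in Col-0, and LHCA6 had 92.7, 85.5 and 77.5 CPM in mycT and 73.2, 73.9 and 77.6 CPM in Col-0. The LHCA5 groups were separate, and the LHCA6 groups overlapped narrowly. LHCB2.4, singled out after its values were seen as the only member with a fold change below 0, had 322, 393 and 382 CPM in mycT and 308, 468 and 442 CPM in Col-0, a fold change of −0.15 ± 0.22.

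How many members are called in mycT depends on the model. At an unadjusted p under 0.05, edgeR had 29 members higher (11 antenna, 9 photosystem I and 9 photosystem II) and 0 lower, against 8.84% and 8.17% of all genes. DESeq2's Wald test called 17 higher (5, 4 and 8 in the same order) and 0 lower, against backgrounds of 3.03% and 2.09% of genes. Same-numbered Col-0 and mycT libraries deviated together, a pairing that the labels do not state. The replicate number was therefore also fitted as a block, which left 1 call in all 12 libraries. When Col-0 and mycT were fitted alone with the block, 23 members were called higher (9, 9 and 5). This alternative was chosen after seeing the data. In it 3.08% of all genes were called higher and 2.42% lower. Without mycT replicate 1 and jazQ mycT replicate 1, the libraries rich in rRNA, 0 members were called, while the class medians were 0.28, 0.29 and 0.29. The calls also fell to 0 without Col-0 replicate 1, Col-0 replicate 2, mycT replicate 1, mycT replicate 2 or jazQ mycT replicate 3 and to 1 without jazQ mycT replicate 2, and were 5 without Col-0 replicate 3.

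**Figure D3:**
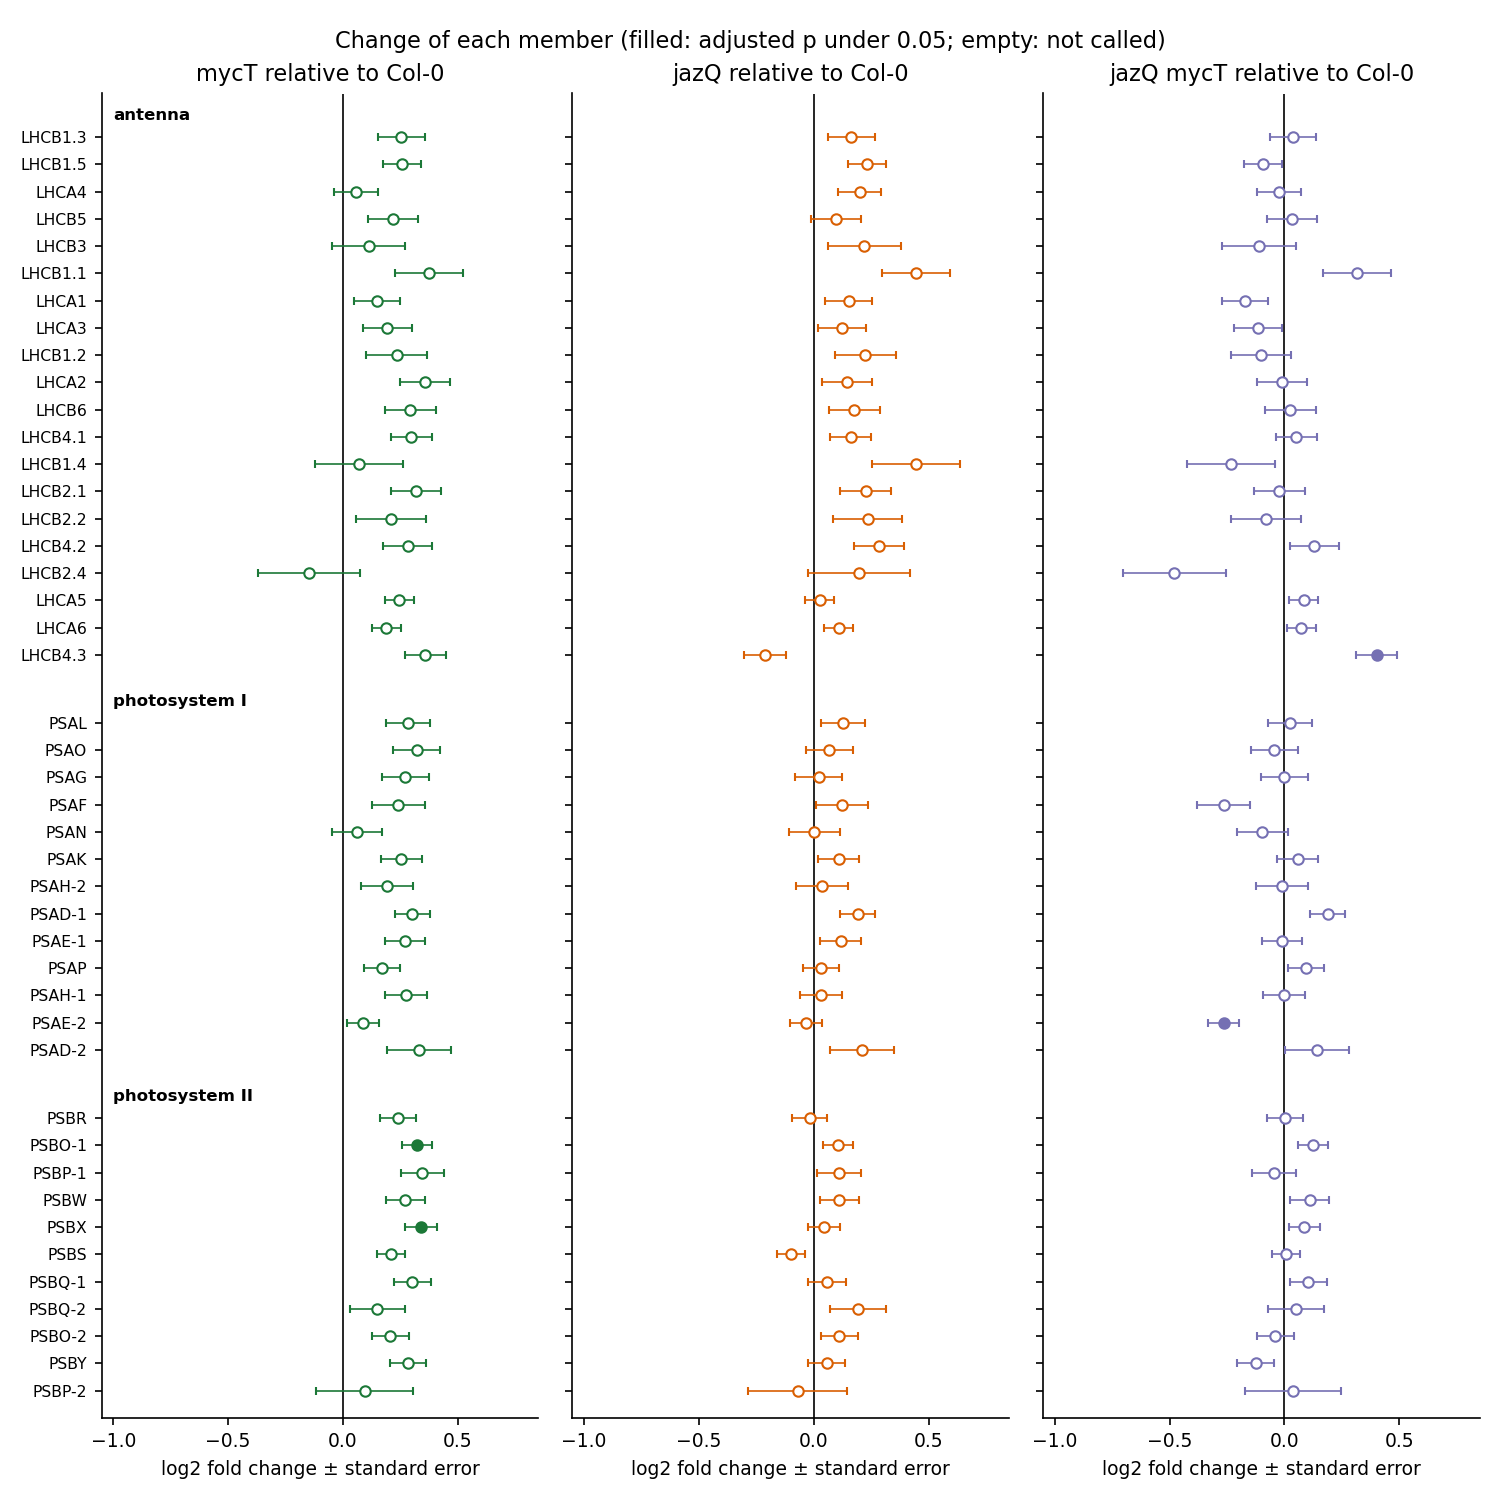
Log2 fold change with its standard error (horizontal axes) of each of the 44 members in mycT, jazQ and jazQ mycT relative to Col-0, ordered within each class by mean TPM. Filled points passed the test, 2 of them for mycT, none for jazQ and 2 for jazQ mycT, and for mycT 43 of 44 points lie to the right of 0.

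Markers of root and shoot were read beside these results. The summed CPM of 19 root markers was 474 to 490.1 in mycT, against 402 to 441 in Col-0, and that of 18 shoot markers outside photosynthesis was 1063 to 1097 in mycT, against 1007 to 1060.0 in Col-0, with 0 markers of either list called. In jazQ mycT the root markers summed to 359 to 389 CPM and the shoot markers to 917 to 1006 CPM. On the CPM scale both lists thus followed the members in being higher in mycT than in Col-0 and than in jazQ mycT. By TPM the shoot markers summed to 794 on average in mycT and 793 in Col-0. The root markers, 20 genes on this scale, summed to 475 and 439. The mycT and Col-0 libraries overlapped by TPM in both lists. The part of the markers in the results was not tested. In RNA from whole seedlings, fewer cells of a type and less RNA per cell cannot be told apart.

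In jazQ relative to Col-0 no member passed the test in either direction, against backgrounds of 1.75% of genes called higher and 1.11% called lower. DESeq2 called 1 member higher and 0 lower, against 2.18% and 1.62% of genes, and with jazQ and Col-0 alone and the replicate block 0 were called, against 0.995% higher and 0.556% lower. At an unadjusted p under 0.05 edgeR had 5 members higher and 1 lower, against 8.34% and 8.21% of all genes. Fold changes were above 0 in 19 of 20 antenna genes, 12 of 13 photosystem I genes and 8 of 11 photosystem II genes. The classes differed in size, with medians of 0.19 for antenna, 0.07 for photosystem I and 0.06 for photosystem II, and the interval from the lowest to the highest median when any single library was left out was 0.08 to 0.29 for antenna, −0.02 to 0.15 for photosystem I and −0.00 to 0.13 for photosystem II. All jazQ libraries lay above Col-0 in 2 members and below in 1, against 10.2% of all genes in each direction. By TPM 4 lay above and 1 below, against 10.6% and 9.07%. The difference between the classes was not tested.

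Most antenna genes of jazQ were lower in replicate 3 than in replicates 1 and 2. LHCB1.3 had 8197, 9188 and 7339.7 CPM in jazQ and 6733, 7083 and 8263 CPM in Col-0. LHCB1.5 had 3839, 4131 and 3287 CPM in jazQ and 3104, 3126 and 3349 CPM in Col-0, and LHCA4 had 4484, 4965 and 3902 CPM in jazQ and 3462, 3939.6 and 4222 CPM in Col-0. In all of these jazQ replicate 3 lay within the range of Col-0, while jazQ replicate 2 lay above it, and so did replicate 1 in LHCB1.5 and LHCA4. LHCB1.4 and LHCB1.1, named after their values were seen, had the largest fold changes in jazQ, 0.45 ± 0.19 and 0.44 ± 0.15, with LHCB1.4 at 1423, 1769.6 and 1036 CPM in jazQ and 827, 1058 and 1219 CPM in Col-0. LHCB4.3 went the other way, with 44.8, 40.3 and 41.2 CPM in jazQ and 48.2, 43.6 and 54.6 CPM in Col-0, a fold change of −0.21 ± 0.09 (edgeR, adjusted p = 0.267).

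Among the photosystem genes, PSAL had 1786, 1857 and 1528 CPM in jazQ, PSAG 1147, 1249.6 and 1031 CPM, PSAD-2 379.9, 433 and 304 CPM and PSAH-1 509, 507 and 442 CPM, with fold changes of 0.13, 0.02, 0.21 and 0.03. PSBR had 2754, 2588 and 2551 CPM in jazQ and a fold change of −0.02, PSBO-2 had 769, 759 and 727 CPM and a fold change of 0.11, and PSBP-2 had 2.51, 2.56 and 2.21 CPM and a fold change of −0.07. Each of these 7 groups overlapped the Col-0 values given for the same gene above. Of the rare LHCI genes, LHCA5 was at 131, 114 and 117 CPM in jazQ and overlapped Col-0, while LHCA6 was at 85.5, 78.1 and 78.4 CPM in jazQ, each above the 73.2, 73.9 and 77.6 CPM of Col-0.

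In jazQ mycT relative to Col-0, 1 member was called higher and 1 lower, against backgrounds of 2.81% and 2.68% of all genes. LHCB4.3 rose, with 62.9, 66.1 and 64.6 CPM in jazQ mycT and 48.2, 43.6 and 54.6 CPM in Col-0, and a fold change of 0.40 ± 0.09 (edgeR, adjusted p = 0.0225). PSAE-2 fell, with 224, 231 and 219 CPM in jazQ mycT and 249, 263 and 299 CPM in Col-0, and a fold change of −0.26 ± 0.07 (edgeR, adjusted p = 0.0435). The groups did not overlap in either gene.

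The shares of these paralogs within their subunit come from the same libraries and are given as a description. LHCB4.3 gave 3.00 ± 0.12% of the summed LHCB4 TPM in jazQ mycT, 2.54 ± 0.37% in mycT, 1.83 ± 0.24% in jazQ and 2.42 ± 0.16% in Col-0 (SD, n = 3 each). PSAE-2 gave 33.4 ± 1.8% of the PSAE pair in jazQ mycT, 34.5 ± 1.4% in mycT, 34.9 ± 0.52% in jazQ and 37.3 ± 1.3% in Col-0. The PSAE-2 share was below that of Col-0 in every mycT and jazQ library too, although PSAE-2 was not called in those lines relative to Col-0. Neither share was tested.

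The other members of jazQ mycT lay around Col-0. Fold changes were above 0 in 9 of 20 antenna, 6 of 13 photosystem I and 8 of 11 photosystem II genes, with medians of −0.02, −0.00 and 0.04. On the TPM scale 8 of 44 were above 0, where the median of all genes itself stood at −0.09 (log2 of TPM + 1) or −0.10 (log2 of TPM + 0.1). The most abundant members were close to Col-0, with 7618, 7954 and 7081 CPM for LHCB1.3, 3697, 4016 and 3718 CPM for LHCA4, 2466, 2907 and 2629 CPM for PSBR and 1568, 1716 and 1522 CPM for PSAL in jazQ mycT, and all 4 overlapped the Col-0 libraries. All jazQ mycT libraries lay above Col-0 in 4 members and below in 2, against 12.7% and 13.5% of all genes. On the TPM scale 0 lay above and 5 below (LHCA1, LHCB1.5, LHCB2.4, PSAE-2 and PSAF), against 3.85% and 20.6% of all genes, so the balance of directions turned with the scale. At an unadjusted p under 0.05 edgeR had 2 members higher and 2 lower, against 9.66% and 10.5%.

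DESeq2 called the same number, 1 higher and 1 lower, against 3.11% and 2.99% of genes, and with jazQ mycT and Col-0 alone and the replicate block 0 were called, against 1.67% higher and 1.24% lower. The call of LHCB4.3 was lost without Col-0 replicate 1 or 2 or jazQ mycT replicate 2 or 3, and that of PSAE-2 without jazQ mycT replicate 1 and mycT replicate 1 together and in 9 of the 12 fits that left out 1 library.

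Compared with jazQ, jazQ mycT carries the myc insertions in addition to the 5 jaz insertions. The deposits differ too, and the effects of the insertions and of the deposits cannot be told apart here. Of the mutated MYC genes, MYC2 (−0.48) and MYC3 (0.13) were not called in jazQ mycT relative to jazQ. MYC4 was called higher (0.64). LHCB4.3 was the 1 member called, and it was higher, against a background of 1.33% of genes called higher and 0.876% called lower. It had 62.9, 66.1 and 64.6 CPM in jazQ mycT and 44.8, 40.3 and 41.2 CPM in jazQ, with no overlap and a fold change of 0.61 ± 0.09 (edgeR, adjusted p = 0.00265). The call was kept in 23 of 24 alternatives, over which the adjusted p ran from 1.66e-07 to 0.0612.

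No other antenna gene passed the test in jazQ mycT relative to jazQ. Of the remaining 19 antenna genes, 18 had fold changes below 0, and LHCA5 had 0.06. The medians were −0.19 for antenna, −0.07 for photosystem I and 0.02 for photosystem II, with 2 of 20, 1 of 13 and 6 of 11 above 0. LHCB1.5 had 2905, 3173 and 2889 CPM in jazQ mycT and 3839, 4131 and 3287 CPM in jazQ, which did not overlap, with a fold change of −0.33 ± 0.08 (edgeR, adjusted p = 0.0675). LHCB2.4 had 332, 313 and 229 CPM in jazQ mycT and 448, 628 and 318 CPM in jazQ, which overlapped despite a fold change of −0.68 ± 0.22. At an unadjusted p under 0.05, 11 members were lower and 1 higher, against 7.47% and 8.01% of all genes. All jazQ mycT libraries lay above jazQ in 2 members and below in 5, against 11.1% and 10.7% of all genes. By TPM 1 lay above and 11 below, against 3.23% and 19.3%. DESeq2 called 1 higher and 3 lower, against 1.79% and 1.21% of genes. With jazQ mycT and jazQ alone and the replicate block, 1 was called higher and 2 lower, against 1.66% and 1.05%. Of the 12 edgeR fits that left out 1 library, 11 called 0 lower, as the main fit did. The fit without jazQ replicate 3 called 5 lower, and the share over all genes in it is not reported here. That library had low antenna values, so leaving it out raises the jazQ mean, and the 5 calls are no separate support.

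The lines jazQ mycT and mycT share the myc insertions and differ in the jaz insertions. In the edgeR fit to all libraries 7 of 44 members fell and 0 rose in jazQ mycT relative to mycT, against backgrounds of 3.77% of genes called lower and 4.05% called higher. They were LHCB1.5 of the antenna, PSAE-2, PSAF and PSAO of photosystem I, and PSBP-1, PSBX and PSBY of photosystem II. All but 1 of the 44 fold changes were below 0, with medians of −0.26 for antenna and photosystem I and −0.20 for photosystem II, and 28 members had all jazQ mycT libraries below all mycT libraries (11, 8 and 9 by class), as 15.3% of all genes did. None had all jazQ mycT libraries above, against 14.1%. By TPM 13 lay below (5, 3 and 5 by class) and 0 above, against 11.8% and 7.54% of all genes.

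PSAF, which docks the electron donor plastocyanin on the lumenal side, had the largest change of the 7. It had 1041, 1181 and 1027 CPM in jazQ mycT and 1426, 1483 and 1699 CPM in mycT, with a fold change of −0.50 ± 0.12 (edgeR, adjusted p = 0.0198). PSBY had 415, 469 and 439 CPM in jazQ mycT and 643, 528 and 587 CPM in mycT, with a fold change of −0.41 ± 0.08 (edgeR, adjusted p = 0.00862). Neither gene overlapped between the lines. Relative to Col-0 in the same fit, PSAF had −0.26 and PSBY −0.13 in jazQ mycT, which did not pass the test.

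PSBP-1 had 1583, 1918 and 1863 CPM in jazQ mycT and 2238, 2357 and 2437 CPM in mycT, a fold change of −0.39 ± 0.10 (edgeR, adjusted p = 0.0271). PSAO had 1022, 1171 and 990.1 CPM in jazQ mycT and 1320.4, 1296 and 1483 CPM in mycT, a fold change of −0.36 ± 0.10 (edgeR, adjusted p = 0.0493). LHCB1.5 had 2905, 3173 and 2889 CPM in jazQ mycT and 3699, 3955 and 3791 CPM in mycT, a fold change of −0.35 ± 0.08 (edgeR, adjusted p = 0.0228). The mycT libraries lay above those of jazQ mycT in each of these genes without overlap.

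PSAE-2 had 224, 231 and 219 CPM in jazQ mycT and 292, 277 and 293 CPM in mycT, with a fold change of −0.35 ± 0.07 (edgeR, adjusted p = 0.00904). PSBX had 859.8, 914 and 856 CPM in jazQ mycT and 1076, 1031 and 1023 CPM in mycT, with a fold change of −0.25 ± 0.07 (edgeR, adjusted p = 0.0433). PSBO-1, the other member called in mycT, had 2699, 2833 and 2727 CPM in jazQ mycT and 3085, 3233 and 3154 CPM in mycT, a fold change of −0.20 ± 0.07 that did not pass the test (edgeR, adjusted p = 0.085). Its libraries were separate all the same, and all 3 of jazQ mycT were above those of Col-0.

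The number called in jazQ mycT relative to mycT varied with the libraries. DESeq2 called 17 members lower (5 antenna, 5 photosystem I and 7 photosystem II) and 0 higher, against 4.12% and 4.31% of genes. With both lines alone and the replicate block, 4 were called lower and 0 higher, against 1.88% and 2.7%, and edgeR in all libraries had 25 lower and 0 higher at an unadjusted p under 0.05, against 12.2% and 11.3% of all genes. Leaving out 1 library gave 2 to 10 calls, with 4 without mycT replicate 1, 3 without mycT replicate 2 or 3 and 2 without jazQ mycT replicate 1 or 3. Without both libraries rich in rRNA, 0 were called, with medians of −0.29, −0.27 and −0.20. The plastid-encoded photosystem genes, which are not members, were highest in the same 2 libraries, at 2264 CPM in jazQ mycT replicate 1 and 1148 CPM in mycT replicate 1 when summed over 19 genes, against 159.7 to 427 CPM in the other 10 libraries.

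**Figure D4:**
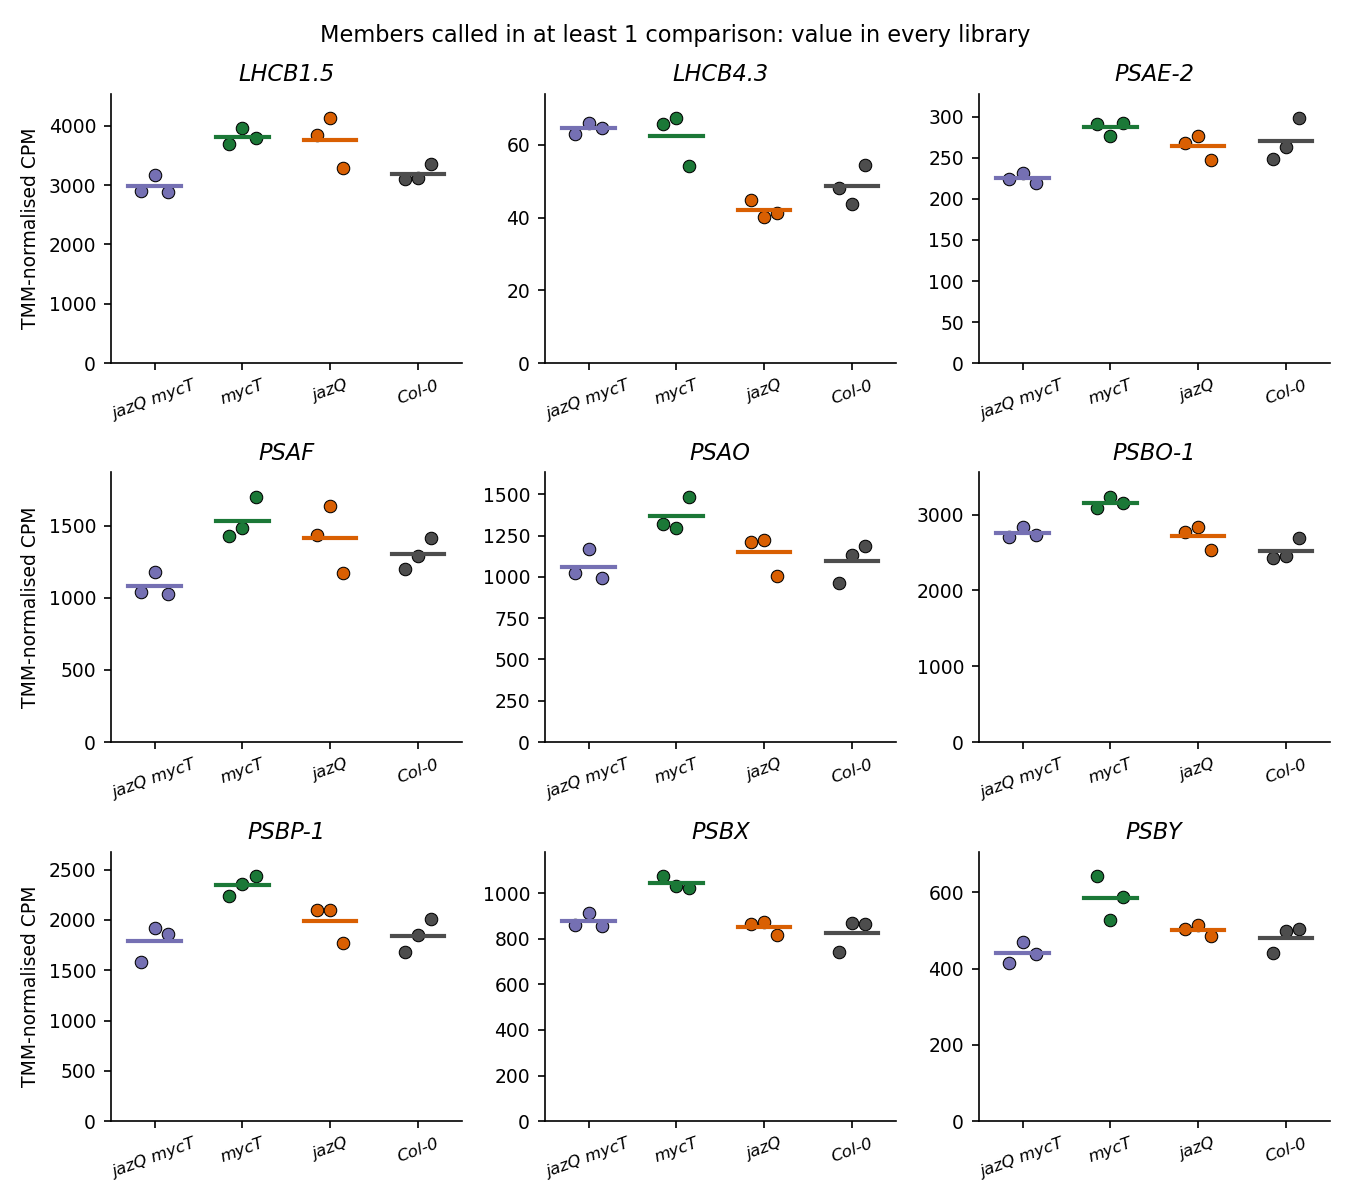
TMM-normalised CPM (vertical axes, from 0) in each library of the 9 members called in at least 1 comparison, in jazQ mycT, mycT, jazQ and Col-0. Points are libraries and lines are means of 3 libraries. LHCB4.3 is high in jazQ mycT (62.9 to 66.1 CPM) and low in jazQ (40.3 to 44.8 CPM), whereas LHCB1.5 is low in jazQ mycT (2889 to 3173 CPM) and high in mycT (3699 to 3955 CPM).

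Whether the myc insertions act differently with and without the jaz insertions was tested as an interaction, that is jazQ mycT against jazQ less mycT against Col-0. LHCB1.5 was the 1 member called, and it was lower, against a background of 0.11% of genes called lower and 0.469% called higher. Its effect was −0.33 in jazQ and 0.26 in Col-0, a difference of −0.58 ± 0.12 (edgeR, adjusted p = 0.0492). The difference was below 0 in 42 of 44 members, with medians of −0.44 for antenna, −0.31 for photosystem I and −0.29 for photosystem II, against −0.00 over all genes. At an unadjusted p under 0.05, 29 members were lower and 0 higher (14, 8 and 7 by class), against 5.74% and 5.59% of all genes, and DESeq2 called 7 lower and 0 higher, against 0.347% and 0.755% of genes. All 4 genotypes enter this difference, so that it is not a separate reading of the members. The call of LHCB1.5 was kept in 5 of 22 alternatives, with adjusted p from 4.98e-05 to 0.673, and it was lost without mycT replicate 1 and jazQ mycT replicate 1.

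Other genes of photosynthesis were read from lists of named genes. The Calvin cycle genes, which fix carbon in the stroma, had the most calls in mycT, with 10 of 21 higher and 0 lower. Over all genes 0.957% were called higher and 0.847% lower. All 21 fold changes were above 0 (median 0.30). Whether these calls held in the alternative settings given for the members is not reported here. RBCS1A and RBCS3B, small subunits of Rubisco, had fold changes of 0.44 ± 0.10 and 0.54 ± 0.10 (edgeR, adjusted p = 0.0461 and 0.0178). RBCS1A averaged 12403 ± 1178 TPM in mycT and 9760.5 ± 192 TPM in Col-0, and RCA, the Rubisco activase, 5662 ± 169 TPM in mycT and 4604 ± 132 TPM in Col-0 (SD, n = 3 each).

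The further genes called were RBCS2B, FBA1 and FBA2 (aldolases), HCEF1 (fructose bisphosphatase), GAPB (glyceraldehyde phosphate dehydrogenase), TKL1 (transketolase) and PRK (phosphoribulokinase), with fold changes of 0.28 to 0.63. In jazQ 0 of 21 were called, against 1.75% of all genes higher and 1.11% lower, and the median was 0.01. In jazQ mycT relative to Col-0 only RBCS2B (0.37) and RCA (0.26) were called, against 2.81% of all genes called higher. The median was 0.16, and all 21 were above 0, unlike the antenna and photosystem genes, whose medians were near 0. Relative to mycT, FBA1 fell in jazQ mycT by 0.44, where 3.77% of all genes were called lower. The difference between these lists and the members was not tested.

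Genes of electron transport and ATP synthase stood between. In mycT 0 of 15 were called, with a median of 0.17 and 13 above 0. Among them were PETE2 (plastocyanin) at 0.18, PETC (the Rieske protein) at 0.06 and FD2 (ferredoxin) at 0.23. In jazQ mycT relative to mycT, FD2 was called lower (−0.36), where 3.77% of all genes were called lower. Of 9 genes for assembly and regulation of the photosystems, the one for cpSRP43, which guides LHC proteins to the thylakoid, was called higher in mycT (0.35 ± 0.08; edgeR, adjusted p = 0.0393), and the median was 0.14. Of 14 chlorophyll synthesis genes tested, GUN4, which activates magnesium chelatase, was called higher in mycT (0.37 ± 0.07; edgeR, adjusted p = 0.0266), with a median of 0.07. GUN4 was called lower in jazQ mycT relative to mycT (−0.34). Of all genes, 0.957% were called higher in mycT relative to Col-0.

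Regulators and relatives of the antenna proteins were read likewise. None of 11 regulators of photosynthesis genes, such as GLK2 (0.05), GUN1 (0.08) and PIF5 (−0.14), was called in mycT, and the median of the 11 was −0.06. Among the 11, GLK1 had the highest fold change (0.25) and CGA1 the lowest (−0.41). In jazQ mycT relative to mycT, GLK1 had −0.19 and GLK2 −0.29, and neither passed the test. The difference between the regulators and the members was not tested. In jazQ mycT relative to Col-0 the regulator GNC was called lower (−0.45), named after its value was seen. Of 6 relatives of the light-harvesting proteins, 0 were called in mycT. In jazQ mycT relative to Col-0 the early light-induced proteins ELIP1 and ELIP2, also named after their values were seen, fell by 1.44 and by 1.11 on the log2 scale (edgeR, adjusted p = 0.00151 and 0.0168). ELIP1 averaged 14.8 ± 1.2 TPM in jazQ mycT, 32.7 ± 3.9 TPM in mycT, 23.9 ± 1.7 TPM in jazQ and 43.0 ± 15 TPM in Col-0. It was also called lower in jazQ relative to Col-0 (−0.85) and in jazQ mycT relative to mycT (−1.14).

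**Figure D5:**
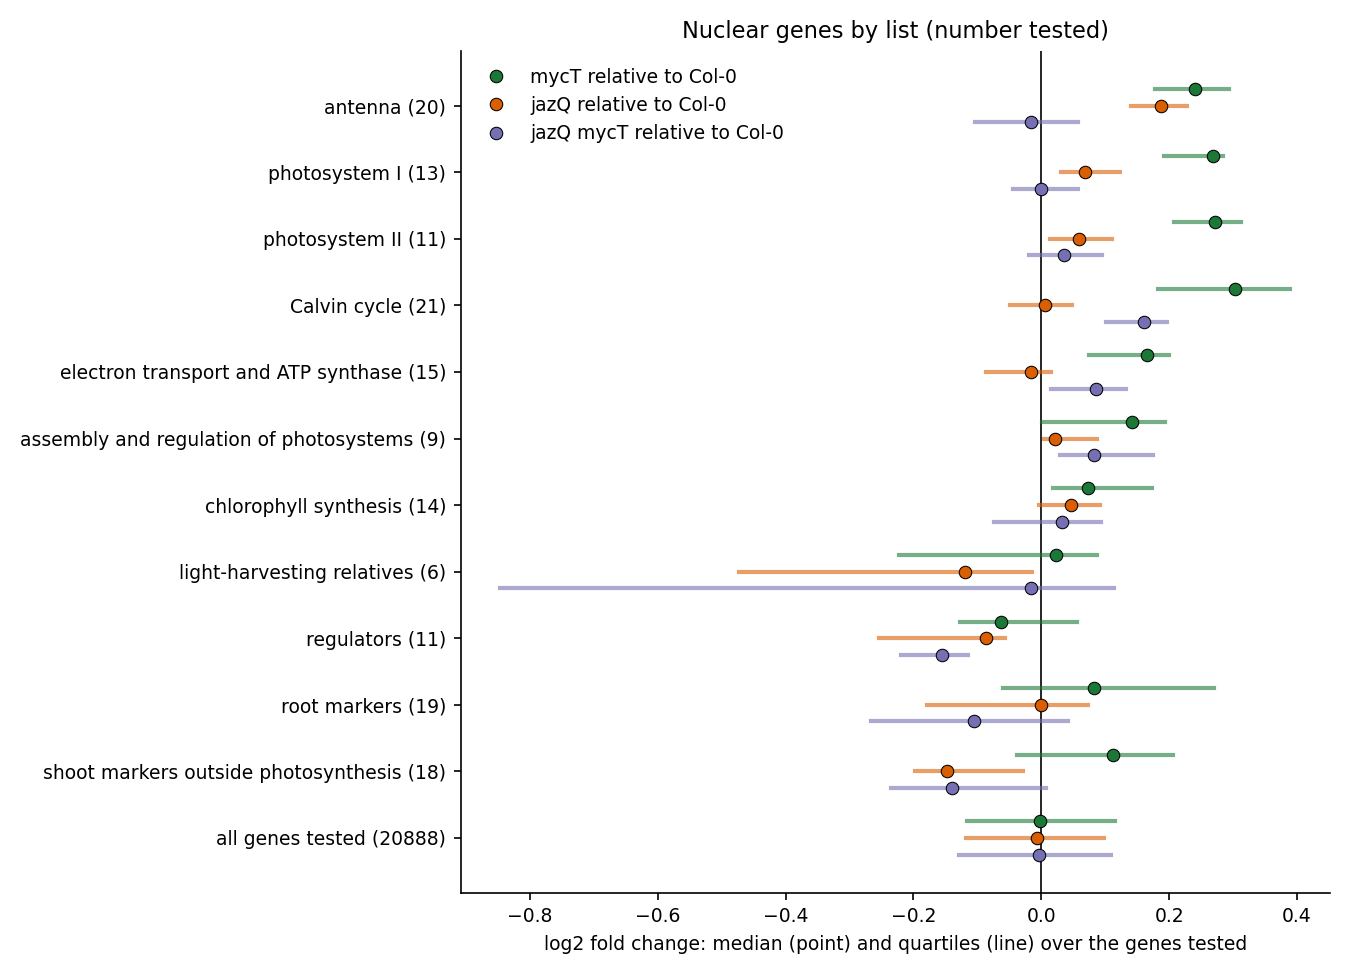
Median (points) and quartiles (lines) of the log2 fold change (horizontal axis) in mycT, jazQ and jazQ mycT relative to Col-0 for antenna, photosystem I and photosystem II genes, 8 other lists and all 20888 genes tested, with the number tested in brackets. In mycT the medians are 0.24 for antenna, 0.27 for both photosystems and 0.30 for the Calvin cycle, against −0.00 for all genes.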

How the data were processed

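RNA of 12 libraries was read single-end. Per the paper's methods, the authors filtered the reads, aligned them to the gene models of TAIR10 and estimated expression with RSEM (v1.2.11). Expected counts were deposited as whole numbers without scaling. The deposited TPM values, which RSEM also gave the authors, divide out gene length and library total. The aligner and the strand of the libraries are not given in the sources used here.

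Members and lists were chosen with earlier results of these data known. The deposited counts of all genes were tested in R v4.3.3 with edgeR v4.0.16 (TMM, filterByExpr, glmQLFit and glmQLFTest, 1 term per genotype, all 12 libraries), with Benjamini-Hochberg adjustment over 20888 genes and a threshold of 0.05. The study used DESeq, for which edgeR stands here. Members were named with values per library where they were called or were among the 3 highest or 3 lowest of their class by mean TPM, and from other lists those called in mycT and up to 3 by level. LHCB1.1, LHCB1.4, LHCB2.4, GLK1, CGA1, GNC, ELIP1 and ELIP2 are named outside this rule or for changes outside it.

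The alternatives were DESeq2 v1.42.0, RLE size factors, no filter, only genes averaging 1 CPM or more, fits to the 2 genotypes compared, a block for the replicate number, limma's trend method (limma v3.58.1) on log2(TPM + 1) and log2(TPM + 0.1) where the mean reached 1 TPM and on log2(TPM + 1) without a filter, rRNA and organelle genes left out, paralogs summed per subunit, an adjusted p under 0.01, and each library left out. Added after seeing the data were the compared genotypes alone with the block, both rRNA-rich libraries left out, and TPM in place of CPM for libraries that do not overlap. Same-numbered libraries of mycT and Col-0 deviated together from their genotype means, with correlations of 0.334, 0.169 and 0.447. Differently numbered libraries of these lines had −0.397 to 0.0926. In other lines, libraries with different numbers reached similar values, such as 0.369 for Col-0 replicate 1 with jazQ replicate 3. The labels do not say what a number marks, so the pairing of mycT with Col-0 was read from the data only and remains uncertain. No other pair of genotypes had all 3 correlations over 0.1. The fit was also run on simulated data. How often it found changes as small as those of the members is not reported here. Tables and plots used matplotlib v3.10.9, pandas v2.3.3 and numpy v2.4.6 under Python v3.11.15. Windows of 250 bases and names were taken from the RefSeq annotation of TAIR10.1, which matched all 44 members.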

Additional observations from a re-analysis of the deposited data

Results flagged for a closer look

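LHCB1.5, an LHCB1 gene of the LHCII trimer, is given here because the effect of the myc insertions differed between the jazQ and Col-0 backgrounds by a test of the difference itself. The interaction was −0.58 ± 0.12 on the log2 scale (edgeR, Benjamini-Hochberg adjusted p = 0.0492), with 2905, 3173 and 2889 CPM in jazQ mycT, 3699, 3955 and 3791 CPM in mycT, 3839, 4131 and 3287 CPM in jazQ and 3104, 3126 and 3349 CPM in Col-0. All jazQ mycT libraries lay below those of jazQ and all mycT libraries above those of Col-0. LHCB1.5 shares 17.3% of its 50-base words with LHCB1.4, and the call was not made when the paralogs of each subunit were summed. It was lost in 17 of 22 alternatives, among them the replicate block (adjusted p = 0.0727), leaving out both rRNA-rich libraries (adjusted p = 0.16) and 11 of the 12 fits without 1 library (edgeR, adjusted p from 0.00995 to 0.157 over the 12).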

How the results depend on the processing

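No result reversed its call. RLE size factors, no filter on low counts and leaving out rRNA and organelle genes kept every count of calls within 1.5 times. DESeq2 called 17 members higher in mycT and 1 higher in jazQ relative to Col-0, 3 lower in jazQ mycT relative to jazQ, 17 lower relative to mycT and 7 lower in the interaction, and a mean CPM of at least 1 left 0 for the interaction. The replicate block in all 12 libraries gave 1 call higher in mycT, 0 lower in jazQ mycT than in Col-0 and 0 for the interaction. The compared genotypes alone gave 0 higher in mycT and 0 lower in jazQ mycT than in Col-0, and with the replicate block 23 higher in mycT, 0 and 0 in jazQ mycT relative to Col-0, 2 lower relative to jazQ and 4 lower relative to mycT. On log2(TPM + 1), log2(TPM + 0.1) and log2(TPM + 1) without a filter, 0 members were called higher in mycT, 0 higher in jazQ mycT relative to Col-0 and 0 in the interaction, and 3, 3 and 0 lower relative to mycT. Without a filter on TPM there were also, for jazQ mycT, 0 lower than Col-0 and 0 higher than jazQ. The photosystem I medians on these scales were 0.17, 0.18 and 0.17 in mycT, −0.10 for all 3 in jazQ mycT relative to Col-0 and −0.16 for all 3 relative to jazQ. Summing the paralogs of a subunit left 0 calls in jazQ mycT relative to Col-0 or jazQ and 0 for the interaction. An adjusted p under 0.01 left 0 in mycT, 0 and 0 in jazQ mycT relative to Col-0, 2 lower relative to mycT and 0 for the interaction. Without mycT replicate 1 and jazQ mycT replicate 1 the calls were 0 in mycT, 0 lower in jazQ mycT than in Col-0, 0 relative to mycT and 0 for the interaction. The cause was not tested in these settings.

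Leaving out 1 library at a time, calls ranged from 0 to 5 higher in mycT, 0 to 1 higher in jazQ, and for jazQ mycT 0 to 1 higher and 0 to 1 lower than Col-0, 0 to 5 lower than jazQ, 2 to 10 lower than mycT and 0 to 2 lower in the interaction. The photosystem I median relative to jazQ ranged from −0.19 to 0.0016 (without jazQ mycT replicate 3). On the TPM scale, chosen after seeing the data, the members with all libraries apart were 11 in place of 24 higher in mycT, and in jazQ mycT 0 in place of 4 higher and 5 in place of 2 lower than Col-0, 11 in place of 5 lower than jazQ and 13 in place of 28 lower than mycT. Each genotype had 3 pools, and values of genes that share sequence rest on how shared reads were divided. The block could not be fitted to the interaction with 2 genotypes alone.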

Other observations

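The plastid-encoded photosystem genes, of which 19 of 20 were tested, were read beside the nuclear members. Their median log2 fold changes were 0.58 in mycT, −0.54 in jazQ and 1.33 in jazQ mycT relative to Col-0, and 0 were called by edgeR or DESeq2 in any of these comparisons. At an unadjusted p under 0.05 edgeR had 0 in mycT, 0 in jazQ and 4 in jazQ mycT, all higher. Their summed CPM was 199 to 2264 in jazQ mycT, 159.7 to 1148 in mycT, 164 to 201 in jazQ and 276 to 427 in Col-0, so that the high values of mycT and jazQ mycT came from replicate 1 of each, where rRNA was also high.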
